A study of Homo sapiens with 8 samples.

Results

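The genes described here are 9 genes known to respond to cAMP, calcium or sodium in the cell: the nuclear receptors NR4A1, NR4A2 and NR4A3, the transcription factors CREB1 and CREM, the salt-inducible kinases SIK1 and SIK2, the kinase SGK1 and the prostaglandin synthase PTGS2. They were listed by symbol and matched to array probes through the transcript accession of each probe. All 9 were found, out of 19056 genes that a probe named and a signal was kept for. RNA came from A549, an established line of human lung carcinoma cells, in 2 series of 4 one-colour arrays. The first series held a vehicle control and cells given 1.25, 5 or 20 μg/mL of EEDS, the ethanol extract of Descurainia sophia seeds. The second held its own vehicle control and cells given 3.75, 15 or 60 nM of helveticoside, a cardiac glycoside found in those seeds. No genetic change was introduced in either series. The RNA of 3 cultures was mixed for every array, and a dose was read on 1 array, which leaves the value at a single dose without a replicate error, and no p-value is given for it. Because each agent was run with a control of its own, the agent and the series cannot be told apart. The labels describe 48 h with the agents, in a passage on a viability assay, whereas the study's methods give a shorter time for the arrays. In RNA of whole cultures, more cells expressing a gene and more RNA per cell cannot be told apart.

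Adenylyl cyclases make cAMP, which releases the catalytic subunits of protein kinase A, and these phosphorylate the transcription factor CREB1 at promoters that carry the cAMP response element. Calcium reaches the same factor through calmodulin-dependent kinases, and salt-inducible kinases hold its coactivators outside the nucleus until they are themselves switched off. NR4A receptors, CREM, SIK1, SGK1 and PTGS2 are classic rapidly induced targets of these routes. Cardiac glycosides block the sodium pump, which raises sodium in the cell and, through sodium-calcium exchange, calcium. These points are background and were not measured on the arrays.

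RefSeq promoter windows (GRCh38.p14, 250 bases before and 50 bases after an annotated transcription start) were given for 8 of the 9 genes, in 17 windows, and none for NR4A2. The half-site TGACG was present on either strand in 7 of the 17 windows, which belong to 5 of the 8 genes (CREM, PTGS2, NR4A3, SIK1 and SIK2). Over all 35116 windows, 24.6% held it, and 28.4% of the 27305 genes with a window had at least 1 that did. The full element TGACGTCA, which contains the half-site on both strands, was found for CREM only, in 2 overlapping windows, against 1.85% of all windows. No window of the 8 genes held AAAGGTCA, the letters of the monomer element bound by NR4A receptors, which 1.22% of all windows held. The single window of CREB1, both windows of NR4A1 and the 3 windows of SGK1 held none of these letters. The sequences below show the sites in 1 gene of each role. They are printed 5′ to 3′ on the strand of the gene and end at the base before the transcription start, except for CREM, where 30 bases around the full element are given. Capitals mark the half-sites or the full element.
CREM, plus strand, chr10:35195841-35195870: gagctgcacatTGACGTCAgctccgagtca
PTGS2, minus strand, chr1:186680424-186680673: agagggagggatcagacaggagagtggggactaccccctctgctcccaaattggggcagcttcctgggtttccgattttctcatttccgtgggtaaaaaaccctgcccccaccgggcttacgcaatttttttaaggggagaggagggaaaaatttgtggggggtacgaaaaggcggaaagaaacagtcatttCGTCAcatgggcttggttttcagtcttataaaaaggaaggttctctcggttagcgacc
NR4A3, plus strand, chr9:99821635-99821884: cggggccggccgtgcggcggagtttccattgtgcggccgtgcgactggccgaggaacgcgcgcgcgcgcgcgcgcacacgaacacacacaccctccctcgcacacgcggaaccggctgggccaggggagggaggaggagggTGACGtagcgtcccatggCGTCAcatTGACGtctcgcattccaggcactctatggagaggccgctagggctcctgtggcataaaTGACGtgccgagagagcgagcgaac
SIK1, minus strand, chr21:43427132-43427381: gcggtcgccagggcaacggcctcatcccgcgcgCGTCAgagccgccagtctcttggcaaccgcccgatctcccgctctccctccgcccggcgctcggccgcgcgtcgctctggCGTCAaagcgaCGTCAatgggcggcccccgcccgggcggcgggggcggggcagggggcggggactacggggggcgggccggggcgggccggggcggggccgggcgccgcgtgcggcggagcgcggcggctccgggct
The element of CREM lies inside the gene, with its first base at position -50 from the most downstream of the 7 annotated starts and at position 3 from the start before it. The half-site of PTGS2 begins at -58, and a second one lies at position 25, past the printed bases. The 4 half-sites of NR4A3 begin at -109, -91, -83 and -25, the 3 of SIK1 at -217, -137 and -126, and the 2 of SIK2 at -59 and -46. Whether any factor was bound at these letters was not measured.

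Values below are log2 of the quantile-normalized, background-corrected signal, and a log2 ratio is the value at a dose minus the value of the control of the same series, so that 1 is a 2-fold difference. A probe is called well above background by the scanner software. The signals of different probes are not comparable, so levels are set side by side only within a gene. Among the 9 genes, 8 were well above background on all 8 arrays, which 11494 genes of the whole table were, called detected genes here. NR4A3 was well above background on 1 array only. The median spot signal of the arrays ranged from 182 to 278 and the share of probes well above background from 54.5% to 64.9%, with the lower shares in the helveticoside series. The control arrays of the 2 series differed by -0.30 (SIK1) to 0.18 (NR4A2) in the log2 signal of the 9 genes, helveticoside control minus EEDS control. Over the detected genes that difference had an SD of 0.481, and it is the only available measure of how far 2 arrays of untreated cells differ, although it also holds any difference between the series. All 11 A549 markers examined were well above background on every array. Of 4 immune markers on the array, PTPRC and CD14 were well above background on every array and CD3E on none. At 20 μg/mL EEDS and 60 nM helveticoside, CD14 had log2 ratios of -1.57 and -2.28, and PTPRC had 0.20 at both. Of the 11 A549 markers, 3 and 4 were 2-fold or more lower at these doses and 0 were higher. Of 7 endothelial and fibroblast markers, CDH5 and COL1A1 were well above background on every array, while PECAM1, VWF, COL1A2 and DCN were so on none. The summed signal ranged from 761 to 3680 for the immune markers and from 413 to 750 for the endothelial and fibroblast markers, and their part in the results was not tested.

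None of the 9 genes was 2-fold or more lower than its control at any dose of either agent. In the EEDS series, 2 genes (CREM and PTGS2) were 2-fold or more higher at 1.25 μg/mL, 1 (CREM) at 5 μg/mL and 3 (NR4A1, NR4A2 and SGK1) at 20 μg/mL. Among all genes kept in that series, 3.15%, 5.94% and 11.5% were 2-fold or more higher at these doses and 2.51%, 6.69% and 12.5% were lower. Of the 11494 detected genes, 389, 838 and 1645 were higher and 257, 863 and 1860 lower. In the helveticoside series, 3 genes (NR4A2, NR4A3 and PTGS2) were past the limit at 3.75 nM, 3 (NR4A2, CREM and PTGS2) at 15 nM and 4 (NR4A1, NR4A2, CREM and PTGS2) at 60 nM. Among all genes kept there, 1.25%, 4.26% and 7.92% were higher and 1.12%, 5.48% and 9.78% were lower. Of the 11494 detected genes, 132, 650 and 1255 were higher and 131, 699 and 1522 lower. CREB1, SIK1 and SIK2 stayed within 2-fold of the control at every dose. The median log2 ratio of the 8 detected genes of the set was 0.38, 0.10 and 0.92 along the EEDS doses and 0.67, 0.43 and 1.09 along the helveticoside doses. The median over all detected genes lay between -0.01 and 0.02 on the same 6 arrays. The median of the set was thus lower at the middle dose than at either of the doses beside it in both series. The helveticoside counts depended on the processing. The 3 genes at 15 nM had 2.03- to 2.17-fold values, and with the authors' processed values or the signal as scanned the counts were 2 at 3.75 nM, without NR4A3, 0 at 15 nM and 3 at 60 nM, without NR4A1. The calls over all genes fell in these settings too. Genes higher at 3.75, 15 and 60 nM numbered 239, 812 and 1509 in the main setting. They numbered 91, 501 and 1113 with the signal as scanned and 69, 430 and 986 with the authors' values.

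**Figure D1:**
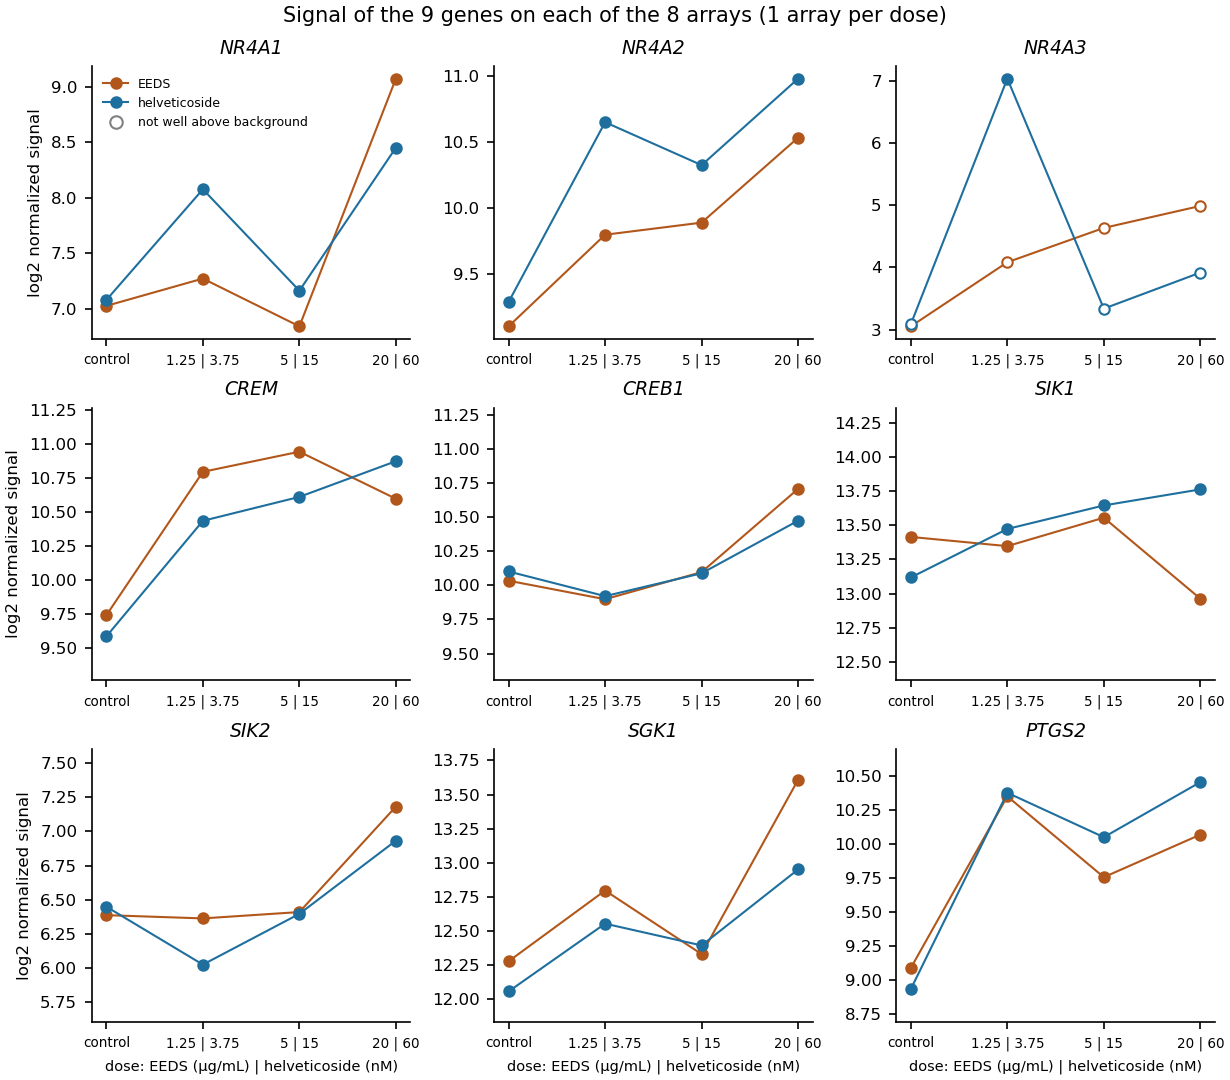
Log2 normalized signal (vertical axis, range set for each gene and at least 2 wide) of the 9 genes against the dose step (horizontal axis), with 1 point for each array, EEDS in brown and helveticoside in blue. Open points were not well above background; NR4A3 has a filled point at 3.75 nM helveticoside only, and NR4A1, SGK1 and PTGS2 dip at the middle dose in both series.

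NR4A1, NR4A2 and NR4A3 are orphan nuclear receptors made rapidly after a stimulus in many tissues, and they bind DNA without a known hormone. NR4A1 had a log2 signal of 7.02 on the EEDS control, 7.27 at 1.25 μg/mL, 6.84 at 5 μg/mL and 9.08 at 20 μg/mL. Its log2 signal was 7.08 on the helveticoside control, 8.08 at 3.75 nM, 7.16 at 15 nM and 8.45 at 60 nM. The top dose stood apart in the EEDS series, 4.15-fold above the control, while the lowest and middle doses had log2 ratios of 0.25 and -0.18. In the helveticoside series both the lowest dose, at 1.999-fold and just short of the limit of 2, and the top dose, at 2.59-fold, were above the control and the middle dose was not. The log2 ratio at the top dose was 2.05 for EEDS, at percentile 97.2 of the detected genes, and 1.37 for helveticoside, at percentile 94.2. The helveticoside ratio was under the limit with the authors' processed values (0.84), with the signal as scanned (0.97) and with normexp (0.97).

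NR4A2 had a log2 signal of 9.10 on the EEDS control and 9.80, 9.89 and 10.53 at 1.25, 5 and 20 μg/mL. On the helveticoside arrays it was 9.29 on the control and 10.65, 10.32 and 10.98 at 3.75, 15 and 60 nM. Every treated array was above every control array, and NR4A2 was the only 1 of the 8 detected genes of the set to be higher at each EEDS dose than at the dose before, as 16.9% of all detected genes were. In the helveticoside series CREM and SIK1 were, as 17.0% of detected genes were. The ratio at 3.75 nM, 2.57-fold, placed it at percentile 99.6 of the detected genes, and at the top doses it was 2.69-fold higher with EEDS and 3.22-fold with helveticoside. NR4A2 has 2 probes. The second gave log2 ratios of 0.50, 0.58 and 1.10 along the EEDS doses and 1.15, 0.81 and 1.29 along the helveticoside doses. Both probes kept the same order of doses in each series, with the second giving smaller ratios throughout.

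NR4A3 was not well above background on any EEDS array, on the helveticoside control or at 15 and 60 nM. Its measured log2 signals on those arrays, 3.05, 4.08, 4.64 and 4.99 along the EEDS series and 3.09, 3.34 and 3.92 in the helveticoside series, are at background level and are not read as levels of the gene. At 3.75 nM it was well above background with a log2 signal of 7.04, which gives a value at least 2.80-fold above the control, the lowest signal of that control array that was well above background being the reference. The point rests on 1 spot of 1 array, and the bound ranged from 0.75 to 2.49 on the log2 scale over the alternative settings. It was under 2-fold with the signal as scanned (0.83), with normexp background correction (0.91) and with the authors' processed values (0.75).

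**Figure D2:**
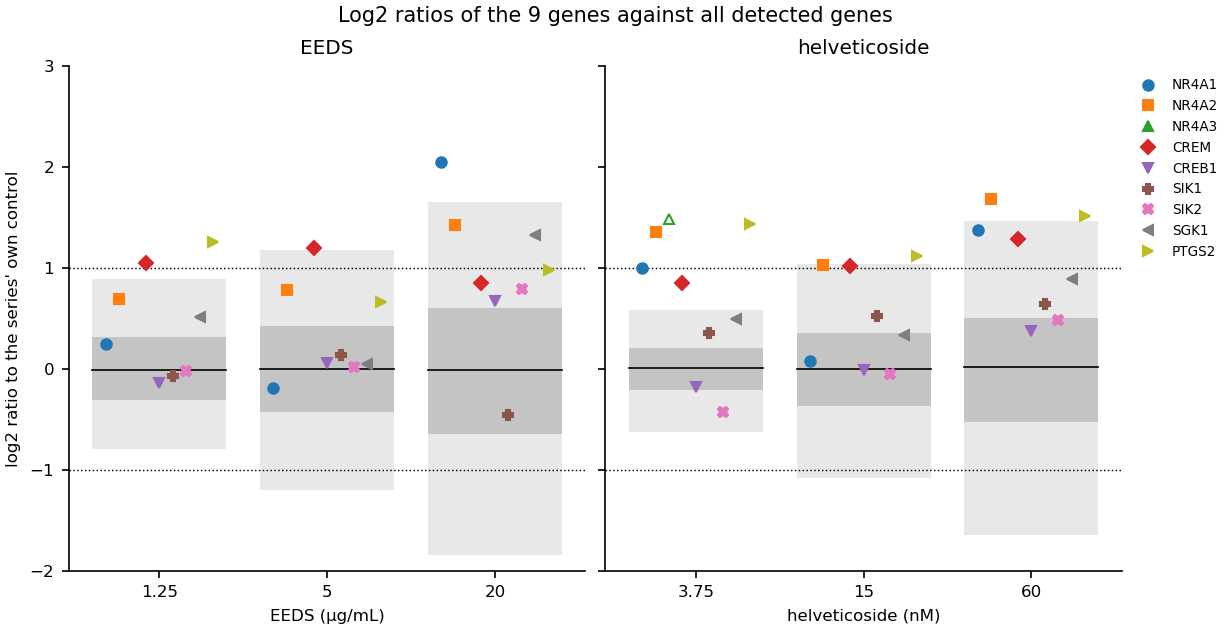
Log2 ratio of each of the 9 genes to the control of its own series (vertical axis) at each dose (horizontal axis). Dark and light grey bars span the middle 50% and the middle 90% of the 11494 detected genes, black lines their median, dotted lines a 2-fold difference, and the open triangle a lower bound. At 3.75 nM helveticoside NR4A1, NR4A2, CREM, PTGS2 and the bound of NR4A3 lie above the light bar, whose upper end is at 0.59.

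CREB1, the factor that protein kinase A phosphorylates, stayed within 2-fold of its control on every treated array. Its log2 signal was 10.03 on the EEDS control and 9.90, 10.10 and 10.71 at the 3 doses, and 10.10 on the helveticoside control and 9.92, 10.09 and 10.48 at the 3 doses. The top dose was the highest array of each series, 1.60-fold above the control for EEDS and 1.29-fold for helveticoside, and the other treated arrays had log2 ratios from -0.18 to 0.06. CREB1 activity is set mainly by phosphorylation, which these arrays do not measure.

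CREM is the closest relative of CREB1 and gives rise to both activators and repressors. One of these, ICER, is a short repressor made from an internal promoter of the gene that cAMP switches on. The probe with the higher mean signal gave 9.74 on the EEDS control and 10.80, 10.94 and 10.60 along the doses, and 9.59 on the helveticoside control and 10.44, 10.61 and 10.87 along the doses. All 6 treated arrays were above both controls. The lowest dose already carried most of the difference, with 2.07-fold at 1.25 μg/mL and 1.80-fold at 3.75 nM, at percentiles 97.1 and 97.9 of the detected genes. The second CREM probe gave 8.01 on the EEDS control and 8.12, 9.25 and 9.38 along the doses, and 7.91 on the helveticoside control and 7.93, 8.81 and 9.66 along the doses. Its lowest dose was at the level of the control, with log2 ratios of 0.11 and 0.02, and its log2 ratios at the top doses were 1.38 and 1.75. At the lowest dose the 2 probes thus gave different ratios in both series, 1.05 against 0.11 for EEDS and 0.85 against 0.02 for helveticoside, and at the middle and top doses both were above the control. Which CREM transcripts each probe reads was not determined.

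**Figure D3:**
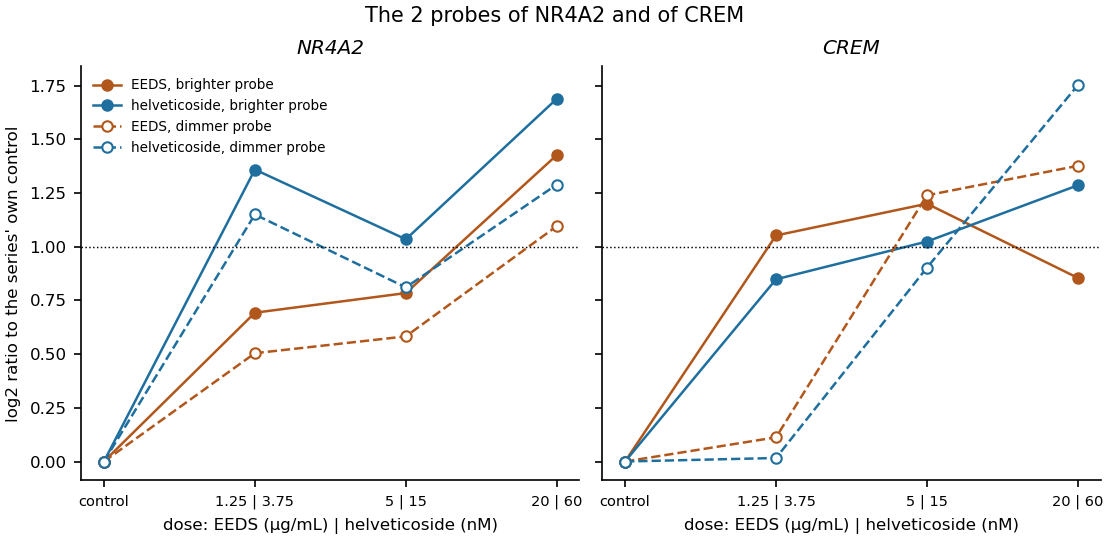
Log2 ratio to the control of the same series (vertical axis) for the 2 probes of NR4A2 and the 2 probes of CREM at each dose step (horizontal axis). Filled points and solid lines are the probe with the higher mean signal, open points and dashed lines the other. The 2 NR4A2 probes run in parallel, whereas the dimmer CREM probe stays near 0 at the lowest dose.

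SIK1 and SIK2 are kinases that phosphorylate the coactivators of CREB1 and class IIa histone deacetylases, and SIK1 is itself a CREB1 target that takes its name from induction by salt. SIK1 gave 13.42 on the EEDS control and 13.35, 13.56 and 12.96 along the doses, and 13.12 on the helveticoside control and 13.47, 13.65 and 13.76 along the doses. The top dose of EEDS was the lowest array of its series, with a log2 ratio of -0.45, and the top dose of helveticoside the highest array of its series, with 0.65. Neither passed the 2-fold limit, although the latter reached 1.004 when each array was scaled to its 75th percentile. The gene annotation holds a near-identical copy of SIK1 elsewhere on chromosome 21, and the probe cannot tell the copies apart. Whether the annotated copy gives any signal in these cells was not measured. SIK2 gave 6.39 on the EEDS control and 6.36, 6.41 and 7.18 along the doses, and 6.45 on the helveticoside control and 6.02, 6.40 and 6.93 along the doses. Its highest array was the top dose in both series, with log2 ratios of 0.80 and 0.48. That EEDS ratio was 0.35 with scaling to the 75th percentile. The 2 kinases were thus on opposite sides of their control at the top dose of EEDS. The SIK1 ratio of -0.45 there was smaller than the SD of 0.481 between the control arrays, and was -0.19 with scaling to the 75th percentile.

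SGK1 is a kinase induced by glucocorticoids, salt and cell shrinkage that promotes sodium transport. Its log2 signal was 12.28 on the EEDS control and 12.80, 12.33 and 13.61 at the 3 doses, and 12.05 on the helveticoside control and 12.55, 12.39 and 12.95 at the 3 doses. All treated arrays were above the control of their own series, and the middle dose was the nearest to it in both. The top dose was 2.52-fold higher for EEDS and 1.86-fold higher for helveticoside.

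PTGS2, also known as COX-2, is the inducible enzyme that commits arachidonic acid to prostaglandins. Its probe is printed at 10 spots on every array, and the log2 signal had an SD between spots of 0.051 to 0.082, which covers the spotting and scanning of 1 hybridized RNA only. The mean over spots gave 9.09 on the EEDS control and 10.35, 9.76 and 10.07 along the doses, and 8.93 on the helveticoside control and 10.38, 10.05 and 10.45 along the doses. Each treated array was above both controls. The lowest dose of EEDS was 2.39-fold above the control and the highest array of its series, the top dose standing at 1.97-fold. The 3 helveticoside doses were 2.72-, 2.17- and 2.87-fold above their control, and the ratio at 3.75 nM was at percentile 99.6 of the detected genes.

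The 3 genes NR4A1, SGK1 and PTGS2 had a lower signal at the middle dose than at both the lowest and the top dose in each series. This shape was looked for after the values had been seen. It was present in both series in 9.72% of the 11494 detected genes, with 18.5% having it in the EEDS series and 18.7% in the helveticoside series, where NR4A2 had it too. The middle dose lay below the lowest dose by a log2 difference of -0.43 and -0.92 for NR4A1, -0.47 and -0.16 for SGK1 and -0.59 and -0.33 for PTGS2 (EEDS and helveticoside). These steps span values below and above the SD of 0.481 between the 2 control arrays. For these genes the middle dose was below both other doses in all 7 alternative settings, but not all of these could change the shape. Each of these genes has 1 probe and was well above background on every array. The median of the probes, leaving out the floor and the limit to detected genes therefore repeated the main values by construction. Only the settings of scaling and background and the authors' processed values could differ, and the shape held in each. Of the 16 detected genes in a list of other CREB1 and activity targets, 3 had this shape in both series (FOS, PER1 and PER2) and 8 were higher at every step in both, EGR1 among them, as 10.1% of all detected genes were. That list was chosen with earlier results of these data known. The immediate early gene FOS and the clock gene PER1 had the dip in both series, with FOS at log2 ratios of 1.28, 0.59 and 5.12 for EEDS and 2.20, 1.12 and 2.58 for helveticoside, and PER1 at 2.34, 1.70 and 4.90 and at 2.27, 1.76 and 3.35.

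A straight dose trend was fitted to each gene with limma over the 8 arrays, with a level and a slope per dose step for each series, so that the scatter about the lines stands in for replicate error. That scatter also holds any departure from a straight line. A gene that differs from its control without a straight trend can therefore miss the threshold. None of the 9 genes passed an adjusted p of 0.05 for either agent. Of the 19056 genes, 7.27% passed rising with EEDS and 7.9% falling, and 5.48% rising with helveticoside and 5.84% falling. For a set of 9 genes a count of 0 is near these shares and is not read as a result about the set. At an unadjusted p under 0.05 there was 1 gene of the set for EEDS (NR4A2) and 3 for helveticoside (NR4A2, CREM and SIK1), against 6370 and 5688 of the 19056 genes. These counts are not read as results about the set either. The same model without trended and robust variances also called 0 of the 9, against 2938 of the 19056 genes for EEDS and 2188 for helveticoside. NR4A2 came closest, with slopes of 0.44 ± 0.15 per step for EEDS and 0.47 ± 0.15 for helveticoside (SE), and limma adjusted p of 0.103 and 0.0991. Its 95% intervals were 0.07 to 0.80 and 0.11 to 0.84. NR4A1 had the steepest EEDS slope of the detected genes of the set, 0.57 with an interval of -0.18 to 1.32. The slopes of CREB1 and SIK2 were between 0.13 and 0.24 and their intervals included 0, as did those of SGK1 and PTGS2. NR4A3, fitted mostly on signals that were not well above background, had intervals wider than 3 log2 units, -0.88 to 2.16 for EEDS and -1.64 to 1.4 for helveticoside. The median slope of the 8 detected genes was 0.26 for EEDS and 0.29 for helveticoside, against a median of 0.00 over all detected genes for both.

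The calls near the threshold moved with the set of genes fitted and with single arrays. With the fit limited to the 11494 detected genes NR4A2 passed for both agents, as 3603 genes did for EEDS and 2777 for helveticoside, and with every probe fitted on its own the second CREM probe passed for helveticoside (slope 0.61 ± 0.13, limma adjusted p 0.0444) and missed for EEDS (0.53 ± 0.13, adjusted p 0.0541). Without the 5 μg/mL array SGK1 passed for EEDS, with a slope of 0.44, as 2175 of the 19056 genes did. Without the 3.75 nM array NR4A2 passed for both agents, as 2108 genes did for EEDS and 958 for helveticoside. NR4A3 then also passed for EEDS, but that slope rests on 4 arrays on which it was not well above background and is not read as a change.

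**Figure D4:**
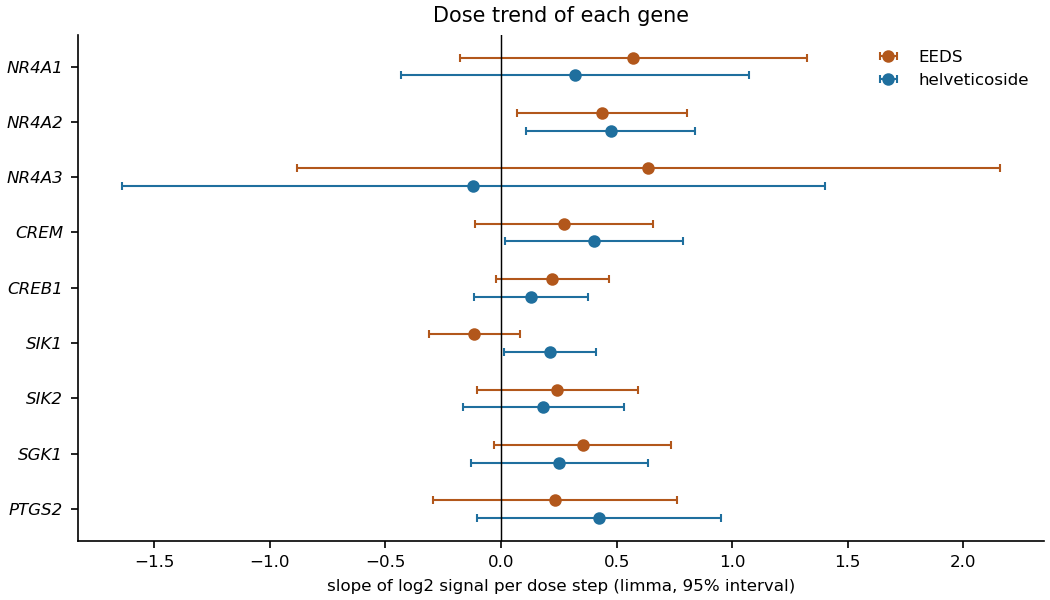
Slope of the log2 signal per dose step (horizontal axis) for each of the 9 genes, with the 95% interval from limma over the 8 arrays, EEDS in brown and helveticoside in blue. Both NR4A2 intervals, and the helveticoside intervals of CREM and SIK1, exclude 0 before adjustment.

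The 2 slopes were set against each other within that model. Dose steps of the 2 agents are not equal amounts, so this compares changes per step only. No gene of the 19056 passed, and 0 of the 9 did (524 genes and 1 of the 9 at an unadjusted p under 0.05). That 1 gene was SIK1, with an EEDS slope of -0.12, a helveticoside slope of 0.21 and a difference of -0.33 ± 0.11 (SE; limma adjusted p 0.9999) and a 95% interval of -0.61 to -0.05. For the other 8 genes the interval of the difference included 0. It ran from -0.55 to 0.48 for NR4A2, from -0.81 to 1.31 for NR4A1 and from -1.39 to 2.91 for NR4A3, so that equal slopes were not shown.

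Other genes of the same routes were grouped into 8 lists, with the 9 genes left out. The lists were chosen with earlier results of these data known, so their counts describe the lists and test nothing. EGR1, FOS and PER1, for example, are among the genes the study lists as up-regulated by EEDS. The list with the most genes past 2-fold was that of other targets of CREB1 and of cell activity, in which 14 of the 25 genes on the array were 2-fold or more higher at 20 μg/mL EEDS and 12 at 60 nM helveticoside, with 1 lower at each. The median log2 ratio of its 16 detected genes was 2.35 and 2.31. With limma, 11 of the 25 rose with EEDS and 6 with helveticoside, and 0 fell. EGR1, a zinc finger factor of the immediate early response, had the largest log2 ratios of the list, 9.94 at 20 μg/mL and 7.69 at 60 nM, and rose with EEDS (slope 3.27 ± 0.58, adjusted p 0.0255). Its helveticoside slope of 2.41 ± 0.58 had an adjusted p of 0.0561.

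**Figure D5:**
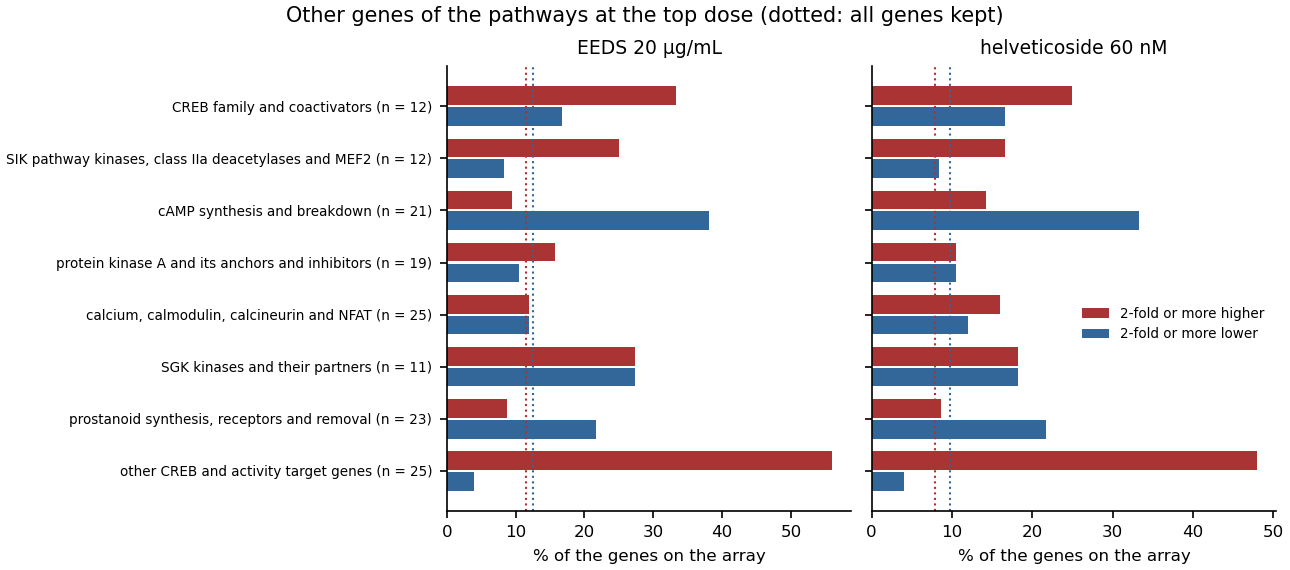
Share of the genes of each list on the array (horizontal axis, %) that were 2-fold or more higher (red) or lower (blue) than the control at the top dose of EEDS (left) and of helveticoside (right), without the 9 genes. The lists were chosen with earlier results of these data known. Dotted lines give the same shares over all genes kept, 11.5% and 12.5% for EEDS and 7.92% and 9.78% for helveticoside; the longest bars are those of the other CREB1 and activity targets, with 14 and 12 of 25 genes higher.

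Among 12 other genes of the CREB family and its coactivators, 4 were 2-fold or more higher and 2 lower at 20 μg/mL EEDS, and 3 higher and 2 lower at 60 nM helveticoside. ATF1, the other close relative of CREB1, had log2 ratios of 0.98, 1.32 and 1.41 along the EEDS doses and rose with EEDS (slope 0.46 ± 0.10, limma adjusted p 0.0416), and of 0.16, 0.84 and 1.01 with helveticoside (adjusted p 0.0775). CREB3L4, a membrane-bound member, fell with both agents, with top-dose log2 ratios of -3.28 and -3.08 and limma adjusted p of 0.0166 and 0.0216. CREB3L2 had top-dose log2 ratios of -1.69 and -1.52 and fell with EEDS (adjusted p 0.0392) but missed the threshold with helveticoside (0.0666). In the list of SIK pathway kinases, deacetylases and MEF2 factors, 3 of 12 were 2-fold or more higher at 20 μg/mL and 2 at 60 nM, with 1 lower at each. MEF2D, a factor that class IIa deacetylases repress, rose with both agents, to log2 ratios of 1.18 and 1.60 (limma adjusted p 0.0221 and 0.0188), as did CAB39, a partner of the kinase LKB1, to 1.19 and 1.08 (0.0299 and 0.0499). MEF2A rose with EEDS to 1.12 (adjusted p 0.0192) and stood at 0.70 with helveticoside (0.0576). SIK3, the relative of SIK1 and SIK2, had log2 ratios of -0.01 and -0.04 at the top doses but -0.90 and -1.37 at the lowest doses.

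Among the enzymes that make and break down cAMP, more genes were lower than higher at the top doses. Of 21 on the array, 8 were 2-fold or more lower and 2 higher at 20 μg/mL EEDS, and 7 lower and 3 higher at 60 nM helveticoside. The phosphodiesterase PDE8B fell with both agents, to log2 ratios of -3.25 and -2.75 (limma adjusted p 0.0130 and 0.0166). The adenylyl cyclase ADCY6 rose with both, to 1.44 and 1.28 (0.0334 and 0.0390). The phosphodiesterase PDE4B had -1.38 and -1.21 and passed for neither (0.0931 and 0.146). Of 19 genes of protein kinase A, its anchors and its inhibitors, 20 μg/mL EEDS had 3 past the limit upward and 2 downward, and 60 nM helveticoside 2 in each direction. The anchor AKAP12 rose with EEDS to a log2 ratio of 2.53 (limma adjusted p 0.0281) and stood at 1.61 with helveticoside (0.0741). The regulatory subunits PRKAR1A, at 1.64 and 1.24, and PRKAR2B, at -0.91 and -1.89, passed for neither agent, with adjusted p from 0.0551 to 0.193. Of 25 calcium, calmodulin, calcineurin and NFAT genes, 3 lay past the limit in each direction at 20 μg/mL, with 4 higher against 3 lower at 60 nM. NFAT5, the NFAT factor that responds to high salt, rose to log2 ratios of 2.58 and 1.89 (0.0157 and 0.0273), and the calcineurin subunit PPP3CC to 1.54 and 1.51 (0.0144 and 0.0184). The calmodulin kinase CAMK2G stood at -1.92 and -1.04 and passed for neither.

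Of 11 other genes of the SGK kinases and their partners, 3 were higher and 3 lower at 20 μg/mL EEDS, and 2 higher and 2 lower at 60 nM helveticoside. SGK2 fell with both agents (limma adjusted p 0.0269 and 0.0379), with a log2 ratio of -1.93 at 20 μg/mL and at least 1.74 below the control at 60 nM, where it was not well above background. SGK3 lay between -0.25 and -0.46 on all 6 arrays. TSC22D3 (1.64 and 2.02), NDRG2 (-1.60 and -1.63) and the mTOR complex subunit RICTOR (1.41 and 0.83) passed for neither agent. Of 23 other genes of prostanoid synthesis, reception and removal, 2 were higher and 5 lower at each top dose. The phospholipase PLA2G4C rose with both agents, to log2 ratios of 3.30 and 2.55 (0.0197 and 0.0355). HPGD, the enzyme that inactivates prostaglandins, stood at -2.50 with EEDS (0.0564) and fell to -3.10 with helveticoside (0.0439). The carbonyl reductase CBR1 fell to -2.63 with EEDS (0.0284) and stood at -1.81 with helveticoside (0.0701). PTGS1, the constitutive relative of PTGS2, was not well above background on any array.

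For each of the 8 detected genes, the most similar among the other 11493 detected genes were found by the Euclidean distance over the 6 log2 ratios. The ratios of a series share a control, so the distance describes the values and tests nothing. BHLHE40, a repressor of the circadian clock, was nearest to NR4A2 (distance 0.18), with log2 ratios of 0.79, 0.88 and 1.45 for EEDS and 1.42, 1.07 and 1.60 for helveticoside. NECTIN4 (0.39) and the pseudokinase gene TRIB1 (0.47) came next. TRIB1 (0.62) and BHLHE40 (0.70) were also the nearest to PTGS2, followed by BICD1 (0.71). BICD1 was the nearest to CREM (0.31), ahead of C9orf40 (0.38) and the sodium leak channel NALCN (0.42). NR4A1 had no near neighbour, FOSL2, an AP-1 subunit, lying at 0.78 and ZFP36, which destabilizes mRNAs, at 0.87. The nearest to SGK1 were SPRY2, a feedback inhibitor of receptor tyrosine kinase signaling (0.36), HCFC2 (0.38) and SMNDC1 (0.43). CREB1 lay close to MAPRE1 (0.10), ZNF593 (0.11) and IGSF1 (0.15), and SIK2 to YTHDF1 (0.22), AFF1 (0.23) and EIF5 (0.25). SIK1 had KCNJ13 (0.31), MESD (0.35) and LRIG3 (0.39). Within the set the closest pair was CREB1 and SIK2 (0.32), followed by NR4A2 and PTGS2 (0.76) and by CREM and PTGS2 (0.87), and the farthest was SIK2 and PTGS2 (2.83).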

How the data were processed

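For each of the 8 arrays, the authors deposited 1 scanner table of spot intensity. Its processed signal, from which the scanner program had taken the background, its median signal, its local background and its spot calls were used. They also deposited a table of intensity values, which by its values holds the median signal minus the background, quantile-normalized within each series, and served as an alternative. The quantile method and the 1.4-fold limit on signal over background follow the study's methods. Outlier spots were left out, spots of a probe averaged, and the 8 arrays quantile-normalized together. Values under 1.4 times the local background were floored at the lowest detected signal of the array, and log2 was taken. Of 34127 probes, 24827 were matched to 1 gene by RefSeq accession (GRCh38.p14), 9300 to none, and 22 had outlier spots only. The brightest probe stood for a gene. Genes over the limit on at least 1 array of a series were kept (19046 for EEDS and 19056 for helveticoside). Where 1 array of a ratio was not well above background, the ratio is a bound. Dose trends used limma 3.58.1 (statmod 1.5.0, R 4.3.3) with trended and robust variances, 4 residual degrees of freedom and Benjamini-Hochberg adjustment over all 19056 genes, and were checked on simulated data. Other values came from scipy 1.17.1, pandas 2.3.3 and numpy 2.4.6 under Python 3.11.15. Alternatives were 75th-percentile scaling, the signal as scanned, normexp with an offset of 50, the authors' table, the median of a gene's probes, other filters, controls and fold limits, a fit without trended and robust variances and leaving arrays out. The number of arrays limits the precision. The members, lists and tests were chosen with earlier results of these data known. The genes named are the 9 members, the 3 genes of each list with the largest mean change at the top doses, relatives of members, the 3 nearest genes to each member (1 is not reported here), and FOS, PER1 and the cell type markers.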

Additional observations from a re-analysis of the deposited data

How the results depend on the processing

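No paired analysis was possible because each dose has 1 array and the labels give no replicate numbers. The log2 ratios of the 9 genes were recomputed under 8 alternatives: of 391 values, 384 moved by less than the SD of 0.481 between the control arrays, 7 moved further (NR4A1 at both top doses and NR4A3 at 3.75 nM), and no ratio past 2-fold changed sign. Without a floor or with the detected genes alone, the 8 detected genes kept their main values by construction. The median of the probes did the same for genes with 1 probe. Many of the 384 values therefore could not move. At a 4-fold limit the counts of genes higher were 0, 0 and 1 along the EEDS doses and 0 at each helveticoside dose, and at a 1.5-fold limit 3 at 5 μg/mL, 7 at 20 μg/mL and 5 at 3.75 nM. Shares of all genes past these limits are not given, so these counts are not read as results about the set. At 60 nM scaling to the 75th percentile gave 6 and the signal as scanned, normexp and the authors' values 3. Over all genes, 1583, 1113, 1131 and 986 were higher there in that order, against 1509 in the main setting. The median of the probes gave 1 at 1.25 μg/mL and 1 at 15 nM, with 568 and 787 over all genes. The other series' control gave 5 at 20 μg/mL and 1 at 15 nM, with 2458 and 1324 over all genes. At 15 nM normexp gave 1 and the signal as scanned and the authors' processed values 0, with 526, 501 and 430 over all genes. For the dose trends, where none passed, 1 gene passed for EEDS with the signal as scanned, normexp, the authors' values or the detected genes alone (NR4A2) and 1 with the median of the probes (CREM), and 1 passed for helveticoside with normexp or the detected genes alone (NR4A2) and 1 with the median of the probes (CREM). Over all genes, in that order, 3544, 3568, 4604 of 18203, 3603 of 11494 and 2764 passed for EEDS. For helveticoside 2640, 2777 of 11494 and 2095 passed, out of 19056 where no total is given. Leaving out 1 array gave 0 to 2 genes for EEDS and 0 to 1 for helveticoside. Over all 19056 genes, 0 to 2639 then passed for EEDS and 0 to 1470 for helveticoside. Without the EEDS control or the 20 μg/mL array no gene of the whole table passed for EEDS, and without the 15 or the 60 nM array none passed for helveticoside, nor for either agent when a dose of both series was left out or a series was fitted alone, so those fits say nothing about single genes. Fitting every probe on its own was added after the data were seen. The cause of these changes was not tested.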
